A study of Mus musculus with 6 samples.

Results

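The genes described here are 38 genes of glycolysis and of the response to low oxygen, out of 18324 gene rows of the count table. They were taken by the mouse symbol in the table's first column and comprise 2 glucose transporters, 17 glycolytic enzymes, 3 regulators of glycolytic flux, 2 lactate transporters, the transcription factor subunit *Hif1a* and 13 other targets of the hypoxia-inducible factor (HIF). Each of the 38 had a row, and 38 of 38 passed the low-count filter. RNA came from B16-F10, a mouse melanoma cell line grown in culture, after fluorescence-activated sorting on the light scattered by melanin into high-pigmented cells (HPC) and low-pigmented cells (LPC). Both populations came from the same line and medium, and the labels name no difference between them in genotype, added agent or oxygen, nor any clone, and give no passage or culture identity. There were 3 libraries of each population, and 1 HPC and 1 LPC library share each of the title suffixes 16-9-15, 18-8-14 and 1-9-14. These are called pairs 1, 2 and 3, and the labels do not say what the suffix marks. Nothing states that the libraries came from separate cultures, so p-values measure the spread between these libraries, which may be technical.

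Glycolysis breaks glucose down to pyruvate in the cytosol, and lactate dehydrogenase turns pyruvate into lactate, which monocarboxylate transporters export. HIF is a pair of proteins whose alpha subunit is hydroxylated by the prolyl hydroxylases of the Egln family and degraded when oxygen is present. When oxygen is short the subunit is stable and HIF switches on genes for glucose uptake, nearly every glycolytic step, blood vessel growth, mitophagy and collagen modification. Melanoma cells commonly ferment glucose to lactate even with oxygen, and HIF1A protein is controlled mainly after transcription, so the level of its mRNA is a poor guide to its activity.

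HIF binds the hypoxia response element, whose core is ACGTG or GCGTG. Promoter windows of 300 bases (250 before to 50 after a RefSeq start, GRCm38.p6) were available for 35 of the 38 genes. The core ACGTG, on either strand, was in at least 1 window of 24 of these 35 genes (68.6%), against 28.3% of the 10935 genes with a window and a row in the table. By window the shares were 52.8% of 53 and 24.3% of 13950. With GCGTG counted too, 32 genes (91.4%) had a match, against 64.7%. ACGTG was in 10 of 17 glycolytic enzymes and in 9 of 11 other HIF targets with a window. A match is not a bound site, and ACGTG is also part of CACGTG, the E-box read by the MITF and MYC families. Shown here are 3 windows, those of the enzyme with the largest difference between the sorted populations (*Eno2*) and of a glycolytic and a non-glycolytic gene lower in HPC within every pair (*Ldha* and *P4ha2*), 5′ to 3′, with both cores, on either strand, in capitals.
*Eno2*, chr6:124769624-124769923, minus strand: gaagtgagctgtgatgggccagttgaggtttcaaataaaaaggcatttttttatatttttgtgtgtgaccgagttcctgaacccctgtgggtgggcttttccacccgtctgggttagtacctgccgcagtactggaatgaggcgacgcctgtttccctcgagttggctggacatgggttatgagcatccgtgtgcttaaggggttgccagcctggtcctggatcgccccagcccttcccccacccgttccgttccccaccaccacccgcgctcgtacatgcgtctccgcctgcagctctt
*Ldha*, chr7:46845554-46845853, plus strand: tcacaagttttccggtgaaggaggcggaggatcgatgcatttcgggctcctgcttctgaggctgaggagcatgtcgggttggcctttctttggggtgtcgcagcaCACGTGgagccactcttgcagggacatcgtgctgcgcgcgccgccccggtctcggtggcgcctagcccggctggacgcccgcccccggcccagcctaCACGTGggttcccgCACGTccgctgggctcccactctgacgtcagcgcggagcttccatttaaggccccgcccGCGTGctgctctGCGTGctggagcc
*P4ha2*, chr11:54100674-54100973, plus strand: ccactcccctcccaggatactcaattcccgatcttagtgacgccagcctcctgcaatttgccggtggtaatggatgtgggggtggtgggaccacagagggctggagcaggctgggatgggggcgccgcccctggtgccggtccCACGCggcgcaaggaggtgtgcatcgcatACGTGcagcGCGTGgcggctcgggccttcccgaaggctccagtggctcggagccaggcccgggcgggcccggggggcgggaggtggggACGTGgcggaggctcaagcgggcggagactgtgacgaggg
The *Eno2* window held no match, which says only that these letters are not in it. That of *Ldha*, 1 of 2 windows of this gene, held CACGTG at 2 places besides single cores. The *P4ha2* window held both cores.

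Each library had 3819605 to 7311131 counts on genes, read from near the polyadenylated end of transcripts, so counts do not scale with transcript length. The 38 genes took 0.531% to 0.695% of these in pairs 1 and 3, but 0.198% and 0.322% in the HPC and LPC libraries of pair 2. In pair 2 the row RP23-81C12.3 alone took 53.9% and 27.1% of gene counts, against at most 5.03% elsewhere, and 5 and 3 of the 38 genes had no count, against 0 in each other library. Pair 2 therefore stands apart, and results are given with and without it. All 8 melanocyte lineage markers had counts in every library, with a summed level of 4582 to 21415 CPM in HPC and 6266 to 17749 CPM in LPC (CPM, counts scaled to a common library size after normalisation). No erythroid marker and 1 of 5 keratinocyte, 2 of 5 endothelial, 3 of 6 fibroblast and 3 of 6 leukocyte markers had a row. The HPC library of pair 2 stood apart in these, with sums of 33.2 CPM (at most 5.29 CPM elsewhere) for fibroblasts, 27.9 CPM (at most 6.02 CPM elsewhere) for leukocytes and 12.2 CPM (at most 2.29 CPM elsewhere) for endothelium. These sums rest on few genes. Raw counts in that library were 36 for *Pdgfra*, 21 for *Col1a2* and 0 for *Col1a1*. They were 46 for *Cd68*, 2 for *Csf1r* and 0 for *Lyz2*, and 20 for *Pecam1* and 1 for *Vwf*. *Col1a1*, *Lyz2* and *Vwf* had more counts in other libraries, so the sums do not show that such cells were present. The part of these markers in the differences within pair 2 was not tested. In 13 of the 38 genes an exon overlaps one of a gene on the other strand, and the strand setting of the counting is not given, so their counts may hold reads of both. These are *Slc2a1*, *Hk1*, *Gpi1*, *Pfkm*, *Pfkp*, *Tpi1*, *Gapdh*, *Hif1a*, *Bnip3*, *Ndrg1*, *Car9*, *Ankrd37* and *Mxi1*. In 3 genes, *Pfkm*, *Pkm* and *Hif1a*, an exon overlaps one of another gene on the same strand, so their counts are uncertain as well.

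None of the 38 genes passed the test between HPC and LPC. In bulk RNA of sorted cells, fewer cells that express a gene and less RNA per cell cannot be told apart. In edgeR's quasi-likelihood test on the 6 libraries, 0 of 38 had a Benjamini-Hochberg adjusted p under 0.05 (0% of the 11324 genes tested passed), and 0 had an unadjusted p under 0.05, against 0.336% of all genes. DESeq2 likewise called 0 of the 38. With the pairs as a block edgeR called 0 (adjusted p at least 0.927), and 1 gene, *Eno2*, had an unadjusted p under 0.05, against 1.88% of all genes. Without pair 2 and with the block, edgeR called 0 higher and 0 lower, where 0.932% and 0.370% of 11906 genes passed in these directions, 1.30% in all, and the smallest adjusted p was 0.0866, for *Eno2*. In that fit 7 of the 38 (18.4%) had an unadjusted p under 0.05, against 12.1% of all genes. A fit in limma-voom with the block and sample weights called 0 higher and 0 lower, where 0.238% and 0.0618% of all genes passed, 0.300% together. The standard errors of the log2 fold changes had a median of 0.505 over the 38 genes with all libraries and of 0.210 without pair 2, and differences of the size of these errors were not detectable. Larger ones could be missed too, as *Eno2*, at 1.05 ± 0.30 (SE) with the block and without pair 2, did not pass. On simulated data with less residual spread, the fit without the block called none of the changes put in. Its 0 of 38 therefore does not show that these genes were equal in HPC and LPC.

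Directions were mixed. The HPC library had the higher level in every pair for 7 of 38 genes (18.4%, against 12.9% of all genes tested) and the lower level in every pair for 4 (10.5%, against 17.2%). Together these were 11 (28.9%), against 30.1% of all genes. Those higher were *Slc2a1*, *Hk1*, *Aldoc*, *Eno2*, *Ldhb*, *Bnip3l* and *P4ha1*, and those lower were *Eno1*, *Ldha*, *Ndrg1* and *P4ha2*. In 0 of the 38 genes were all 3 values of one population above all 3 of the other, against 5.74% of all genes tested, 2.43% with HPC above and 3.31% with HPC below. The median log2 fold change was 0.073 over the 38 genes and -0.038 over all genes tested. Within pair 2 the median over all genes was -0.20, against 0.016 and -0.0024 within pairs 1 and 3, so a log2 difference in pair 2 is to be read against that shift.

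**Figure D1:**
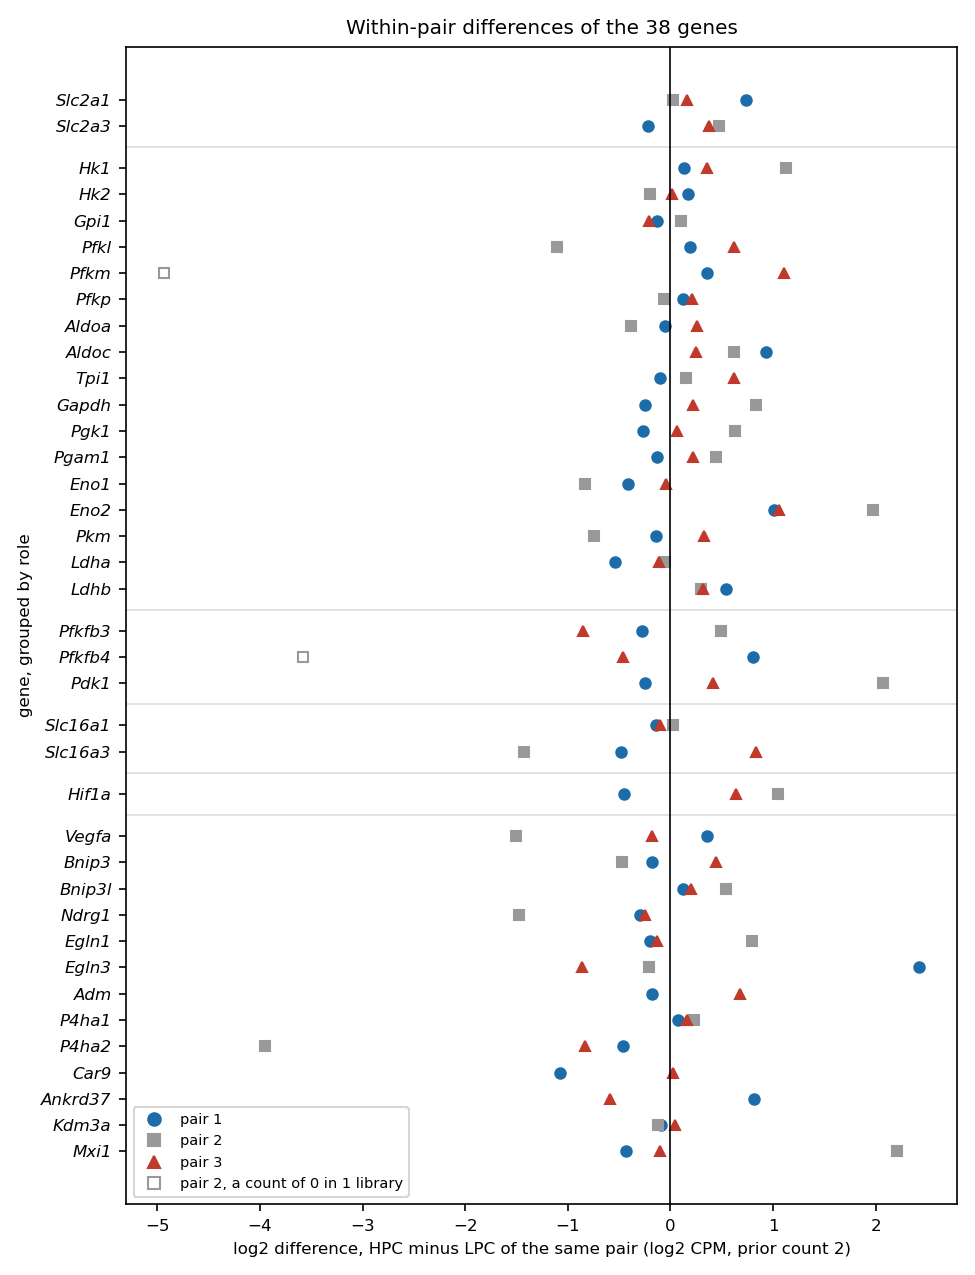
Log2 difference between the HPC and LPC library of the same pair (x axis, log2 CPM) for each of the 38 genes (y axis, grouped by role from glucose transporters at the top to other HIF targets at the bottom). Symbols mark pairs 1, 2 and 3, open squares a count of 0 in 1 library of pair 2, and no square is drawn where both had 0. *Eno2* lies at 1.01, 1.97 and 1.05, while for most genes the pairs fall on both sides of 0.

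Glucose enters through the facilitative transporters GLUT1 and GLUT3, the products of *Slc2a1* and *Slc2a3*. *Slc2a1* was at 24.4, 9.31 and 27.5 CPM in the HPC and at 14.5, 9.15 and 24.6 CPM in the LPC libraries of pairs 1, 2 and 3. Its log2 differences were 0.73, 0.025 and 0.16 within pairs 1, 2 and 3. Only pair 1 showed a clear gap between its libraries, and the fitted log2 fold change was 0.35 ± 0.65 (SE). *Slc2a3* was at 46.9, 54.7 and 15.2 CPM in the HPC and at 54.4, 39.2 and 11.7 CPM in the LPC libraries of pairs 1, 2 and 3, low in both libraries of pair 3 and with differences of -0.21, 0.48 and 0.37. Its transcripts share stretches of up to 195 bases with those of 27 other rows of the table, so its counts are uncertain.

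The early steps use hexokinase, which traps glucose as glucose 6-phosphate, and phosphofructokinase, the main control point. *Hk1* was at 52.4, 38.4 and 23.6 CPM in the HPC and at 47.6, 17.4 and 18.4 CPM in the LPC libraries of pairs 1, 2 and 3. The pairs differed by 0.14, 1.12 and 0.36 (log2), always with more in HPC, and the fitted change was 0.45 ± 0.57 (SE). *Hk1* was 24.9% (interval 20.1% to 30.4%) of the reads of *Hk1* and *Hk2* in the HPC and 11.6% (interval 9.12% to 14.6%) in the LPC library of pair 2, but 24.8% and 25.2% in pair 1, and 13.6% (interval 12.0% to 15.5%) and 11.041% (interval 9.59% to 12.7%) in pair 3 (Wilson 95% intervals, which cover counting error only). The HIF-inducible hexokinase gene *Hk2* had 141 ± 22.7 CPM in HPC and 141 ± 7.41 CPM in LPC (SD, n = 3 each), and its fitted change was 0.0071 ± 0.35 (SE). Phosphoglucose isomerase (*Gpi1*) had 191 ± 59.2 CPM in HPC and 198 ± 39.2 CPM in LPC (SD, n = 3 each). The phosphofructokinase subunits *Pfkl* (liver type), *Pfkm* (muscle type) and *Pfkp* (platelet type) had raw counts of 113, 12 and 205, 101, 0 and 121, and 237, 72 and 184 in the HPC libraries of pairs 1, 2 and 3. In the LPC libraries these were 97, 54 and 147, 77, 35 and 61, and 214, 153 and 177. All 3 subunits were higher in HPC in pairs 1 and 3 and lower in pair 2, where the HPC library had no *Pfkm* read.

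Aldolase splits fructose 1,6-bisphosphate into triose phosphates. The main isozyme gene, *Aldoa*, had 610.1 ± 199.8 CPM in HPC and 671 ± 363 CPM in LPC (SD, n = 3 each), with its highest values in both libraries of pair 2. *Aldoc* was at 33.0, 59.9 and 77.9 CPM in the HPC and at 17.2, 38.9 and 65.4 CPM in the LPC libraries of pairs 1, 2 and 3. *Aldoc*, the brain-type aldolase, thus had more in HPC in every pair (log2 differences 0.93, 0.62 and 0.25), and both libraries of pair 1 were below those of pair 3. Its fitted change was 0.49 ± 0.57 (SE), and 0.54 ± 0.21 (SE) with the block and without pair 2 (edgeR adjusted p 0.257). Triose phosphate isomerase (*Tpi1*) had 322 ± 102 CPM in HPC and 278 ± 107 CPM in LPC (SD, n = 3 each). For *Gapdh*, *Pgk1* and *Pgam1*, the enzymes from glyceraldehyde 3-phosphate to 2-phosphoglycerate, the HPC library was the lower in pair 1 and the higher in pairs 2 and 3. *Pgam1* was at 1029.9, 642 and 939 CPM in the HPC and at 1126, 473 and 808 CPM in the LPC libraries of pairs 1, 2 and 3. Its mean over the 6 libraries, 836 CPM, was the highest of the 38 genes, ahead of *Aldoa* at 640.3 CPM, but *Aldoa* was the higher in both libraries of pair 2, at 833 and 1089.7 CPM. This order is of single rows and depends on how reads were split among near-identical rows. With those rows added, *Pgk1* was at 750 and *Pgam1* at 673 CPM in HPC of pair 2. In each other library the summed *Pgk1* was below the summed *Pgam1*. Levels are compared between genes here because reads come from the 3′ end of each transcript. The log2 differences were -0.24, 0.84 and 0.22 for *Gapdh*, -0.27, 0.63 and 0.069 for *Pgk1* and -0.13, 0.44 and 0.22 for *Pgam1*. Each of these shares long stretches with retrocopies in the table, so their counts are uncertain.

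Enolase, which makes phosphoenolpyruvate, has 3 isozyme genes, and *Eno1* and *Eno2* differed between HPC and LPC with opposite signs within each pair. *Eno2*, the neuron-type enolase gene, lies at chromosome 6, 124760053 to 124769673, minus strand on GRCm38. *Eno2* was at 40.5, 93.1 and 8.65 CPM in the HPC and at 19.997, 23.4 and 3.99 CPM in the LPC libraries of pairs 1, 2 and 3. The log2 differences were 1.01, 1.97 and 1.05, all toward HPC, yet the groups overlap, because both libraries of pair 3 lay below those of pair 1. The raw counts were 249, 160 and 74 in HPC and 121, 82 and 38 in LPC. The fitted log2 fold change was 1.58 ± 0.93 (SE) with an edgeR adjusted p of 0.9996. With the block it was 1.37 ± 0.36 (SE, adjusted p 0.927), and without pair 2 as well 1.05 ± 0.30 (SE) (adjusted p 0.0866). Leaving out the HPC library of pair 2 reduced the unblocked value to 0.65. *Eno1*, the ubiquitous enolase gene at chromosome 4, 150236721 to 150248879, plus strand, lay lower in HPC. *Eno1* was at 217, 156 and 190.3 CPM in the HPC and at 289, 277 and 197 CPM in the LPC libraries of pairs 1, 2 and 3, with log2 differences of -0.42, -0.83 and -0.047 and a fitted change of -0.44 ± 0.36 (SE). *Eno3* was at 14.0, 27.9 and 55.8 CPM in the HPC and at 17.0, 29.4 and 31.9 CPM in the LPC libraries of pairs 1, 2 and 3. This muscle-type gene, from the wider lists, followed neither, with log2 differences of -0.28, -0.075 and 0.80.

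A share of the reads of a set of isozyme genes within one library does not depend on how libraries are scaled. The shares of the glucose transporter, phosphofructokinase and lactate transporter genes had no common direction over the pairs. *Slc2a1* was 34.2% and 21.1% of *Slc2a1* and *Slc2a3* reads in HPC and LPC of pair 1, 14.5% and 18.9% in pair 2, and 64.4% and 67.8% in pair 3. The shares of *Eno2* and *P4ha2* use the same counts as their differences, so they are no separate evidence. *Eno2* made up 15.8% (interval 14.0% to 17.6%) of *Eno1* and *Eno2* counts in the HPC and 6.47% (interval 5.44% to 7.67%) in the LPC library of pair 1. In pair 2 these shares were 37.4% (interval 32.9% to 42.1%) and 7.80% (interval 6.33% to 9.58%). In pair 3 they were 4.35% (interval 3.48% to 5.42%) and 1.99% (interval 1.45% to 2.72%). The intervals of the HPC and LPC libraries did not overlap within any pair, and the HPC share of pair 3 was below every LPC share of the other pairs. With *Eno3* in the total as well, the *Eno2* share was 14.9% (interval 13.3% to 16.7%) in HPC and 6.13% (interval 5.15% to 7.28%) in LPC of pair 1, 33.6% (interval 29.5% to 37.973%) and 7.11% (interval 5.76% to 8.73%) in pair 2, and 3.40% (interval 2.71% to 4.24%) and 1.72% (interval 1.25% to 2.35%) in pair 3, again with no overlap of intervals within a pair.

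Lactate dehydrogenase likewise has a muscle-type gene, *Ldha*, a textbook HIF target at chromosome 7, 46841475 to 46855627, plus strand, and a heart-type gene, *Ldhb*. *Ldha* was at 375, 244 and 318 CPM in the HPC and at 545, 253 and 343 CPM in the LPC libraries of pairs 1, 2 and 3, with log2 differences of -0.54, -0.051 and -0.11, so the libraries of pairs 2 and 3 lay close together. *Ldhb* was at 67.2, 11.6 and 51.3 CPM in the HPC and at 46.1, 9.43 and 41.0 CPM in the LPC libraries of pairs 1, 2 and 3, with differences of 0.54, 0.29 and 0.32, all toward HPC. The fitted changes were -0.28 ± 0.41 (SE) and 0.44 ± 0.76 (SE), and without pair 2 and with the block -0.33 ± 0.13 (SE) and 0.42 ± 0.19 (SE) (edgeR adjusted p 0.267 and 0.363). *Ldhb* was 15.2% (interval 13.9% to 16.6%) of *Ldha* and *Ldhb* counts in HPC and 7.80% (interval 6.97% to 8.73%) in LPC of pair 1, and 13.9% (interval 12.7% to 15.1%) and 10.7% (interval 9.72% to 11.7%) in pair 3. In pair 2, where *Ldhb* had 20 and 33 reads, the intervals overlapped at 4.56% (interval 2.97% to 6.93%) and 3.60% (interval 2.57% to 5.01%). The share of *Aldoc* in *Aldoa* and *Aldoc* counts was higher in HPC in pairs 1 and 2 but 12.4% against 12.5% in pair 3. Pyruvate kinase (*Pkm*), the last glycolytic step, had 278 ± 28.9 CPM in HPC and 326 ± 102 CPM in LPC (SD, n = 3 each), and counts from the 3′ end do not separate its splice forms.

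**Figure D2:**
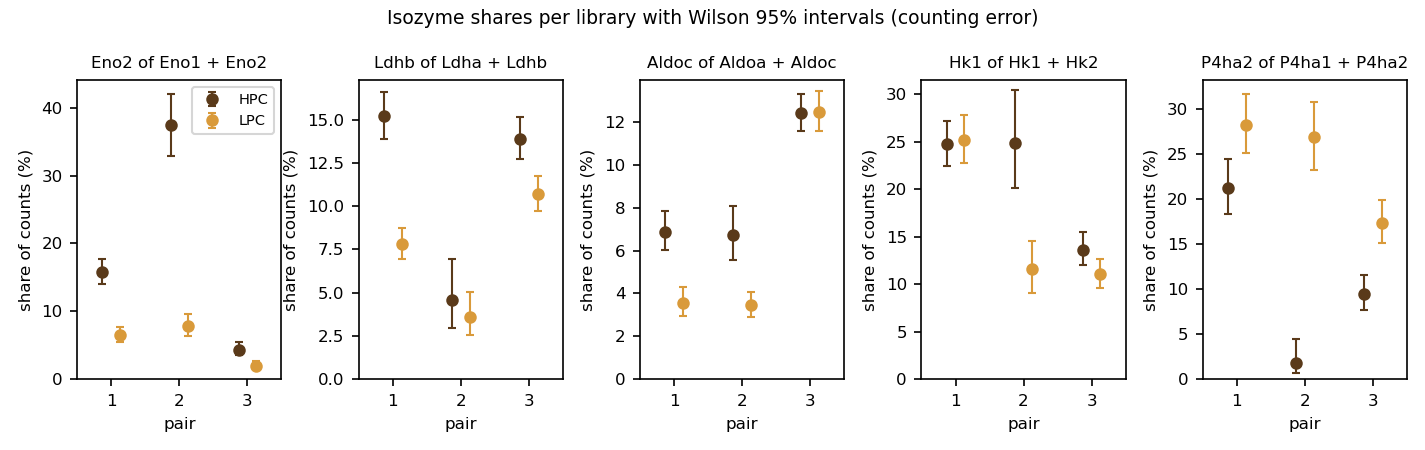
Share of the counts of an isozyme pair taken by 1 isozyme (y axis, percent) in the HPC and LPC library of pairs 1, 2 and 3 (x axis), with Wilson 95% intervals as bars. The *Eno2* share is higher in HPC in each pair (15.8% against 6.47% in pair 1), the *P4ha2* share is lower in each, and the *Hk1* and *Aldoc* shares differ between pairs in their pattern. The shares of glucose transporter, phosphofructokinase and lactate transporter genes, which had no common direction, are not drawn.

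Flux is tuned by the bifunctional enzymes that set the phosphofructokinase activator fructose 2,6-bisphosphate and by a kinase that keeps pyruvate out of mitochondria. *Pfkfb3* was at 35.5, 56.5 and 20.9 CPM in the HPC and at 43.0, 40.0 and 38.1 CPM in the LPC libraries of pairs 1, 2 and 3, with log2 differences of -0.27, 0.49 and -0.85 and a fitted change of -0.11 ± 0.47 (SE). *Pfkfb4* had at most 35 counts in a library and none in HPC of pair 2. *Pdk1*, the pyruvate dehydrogenase kinase, had differences of -0.24, 2.07 and 0.42, the large one being in pair 2 with 70 and 33 reads. The lactate transporter genes *Slc16a1* (MCT1) and *Slc16a3* (MCT4) close the pathway. *Slc16a1* was at 42.8, 33.2 and 21.4 CPM in the HPC and at 47.3, 32.6 and 23.0 CPM in the LPC libraries of pairs 1, 2 and 3, so the libraries of a pair lay close together and both libraries of pair 3 were below those of pair 1 (-0.14, 0.025 and -0.10 within pairs, fitted -0.079 ± 0.49 (SE)). *Slc16a3*, the HIF-inducible exporter, differed by -0.48, -1.42 and 0.83, with no common direction.

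*Hif1a* itself had no common direction. *Hif1a* was at 56.1, 97.2 and 113 CPM in the HPC and at 76.8, 46.9 and 72.3 CPM in the LPC libraries of pairs 1, 2 and 3, lower in HPC in pair 1 and higher in pairs 2 and 3 (-0.45, 1.05 and 0.64 on the log2 scale, fitted 0.44 ± 0.42 (SE), edgeR adjusted p 0.9996). The prolyl hydroxylase genes, which are HIF targets and limit HIF, were mixed as well. *Egln1* differed by -0.20, 0.79 and -0.13, and *Egln3* had 20, 8 and 23 counts in HPC and 2, 19 and 49 in LPC, too few to compare within a pair.

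Of the other HIF targets, *P4ha2* had the largest difference. It encodes an alpha subunit of collagen prolyl 4-hydroxylase and lies at chromosome 11, 54100095 to 54131665, plus strand. *P4ha2* was at 24.1, 2.33 and 9.70 CPM in the HPC and at 33.4, 40.9 and 17.5 CPM in the LPC libraries of pairs 1, 2 and 3, with log2 differences of -0.47, -3.95 and -0.83. The HPC library of pair 2 stood far below the others. The difference of pair 2 rests on 4 reads against 143. The fitted change was -1.32 ± 0.81 (SE), -0.85 without the HPC library of pair 2, and -0.66 ± 0.26 (SE) with the block and without pair 2 (edgeR adjusted p 0.274). *P4ha1* was at 89.3, 131 and 92.9 CPM in the HPC and at 84.6, 111 and 83.2 CPM in the LPC libraries of pairs 1, 2 and 3, with differences of 0.078, 0.24 and 0.16. It encodes the other main alpha subunit of that enzyme. *P4ha2* was 21.2% (interval 18.4% to 24.4%) of the reads of both in HPC and 28.3% (interval 25.1% to 31.7%) in LPC of pair 1, 1.75% (interval 0.681% to 4.40%) and 26.9% (interval 23.3% to 30.8%) in pair 2, and 9.45% (interval 7.69% to 11.6%) and 17.4% (interval 15.1% to 19.9%) in pair 3. The intervals did not overlap within any pair.

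*Ndrg1*, a stress-responsive gene used as a marker of hypoxia, was lower in HPC within each pair. *Ndrg1* was at 15.0, 8.73 and 53.9 CPM in the HPC and at 18.5, 24.9 and 64.0 CPM in the LPC libraries of pairs 1, 2 and 3, with differences of -0.30, -1.48 and -0.25 and a fitted change of -0.46 ± 0.78 (SE). Both libraries of pair 3 were above the other 4. The mitophagy receptor genes *Bnip3* and *Bnip3l* differed from each other in pattern. *Bnip3l* was at 46.9, 104 and 72.6 CPM in the HPC and at 43.0, 71.5 and 63.0 CPM in the LPC libraries of pairs 1, 2 and 3, with differences of 0.12, 0.54 and 0.20, while *Bnip3* differed by -0.18, -0.47 and 0.45. *Vegfa*, the angiogenic growth factor gene, had 82.6, 68.7 and 63.6 CPM in HPC and 64.5, 195 and 71.9 CPM in LPC, where only the LPC library of pair 2 stood apart. The histone demethylase gene *Kdm3a* differed by -0.088, -0.12 and 0.044, and the MYC antagonist gene *Mxi1* differed by -0.43, 2.21 and -0.10. Adrenomedullin (*Adm*), carbonic anhydrase 9 (*Car9*) and *Ankrd37*, all strongly inducible by HIF, had at most 67 counts in a library and none in either library of pair 2. A count of 0 there does not show that the genes were silent.

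**Figure D3:**
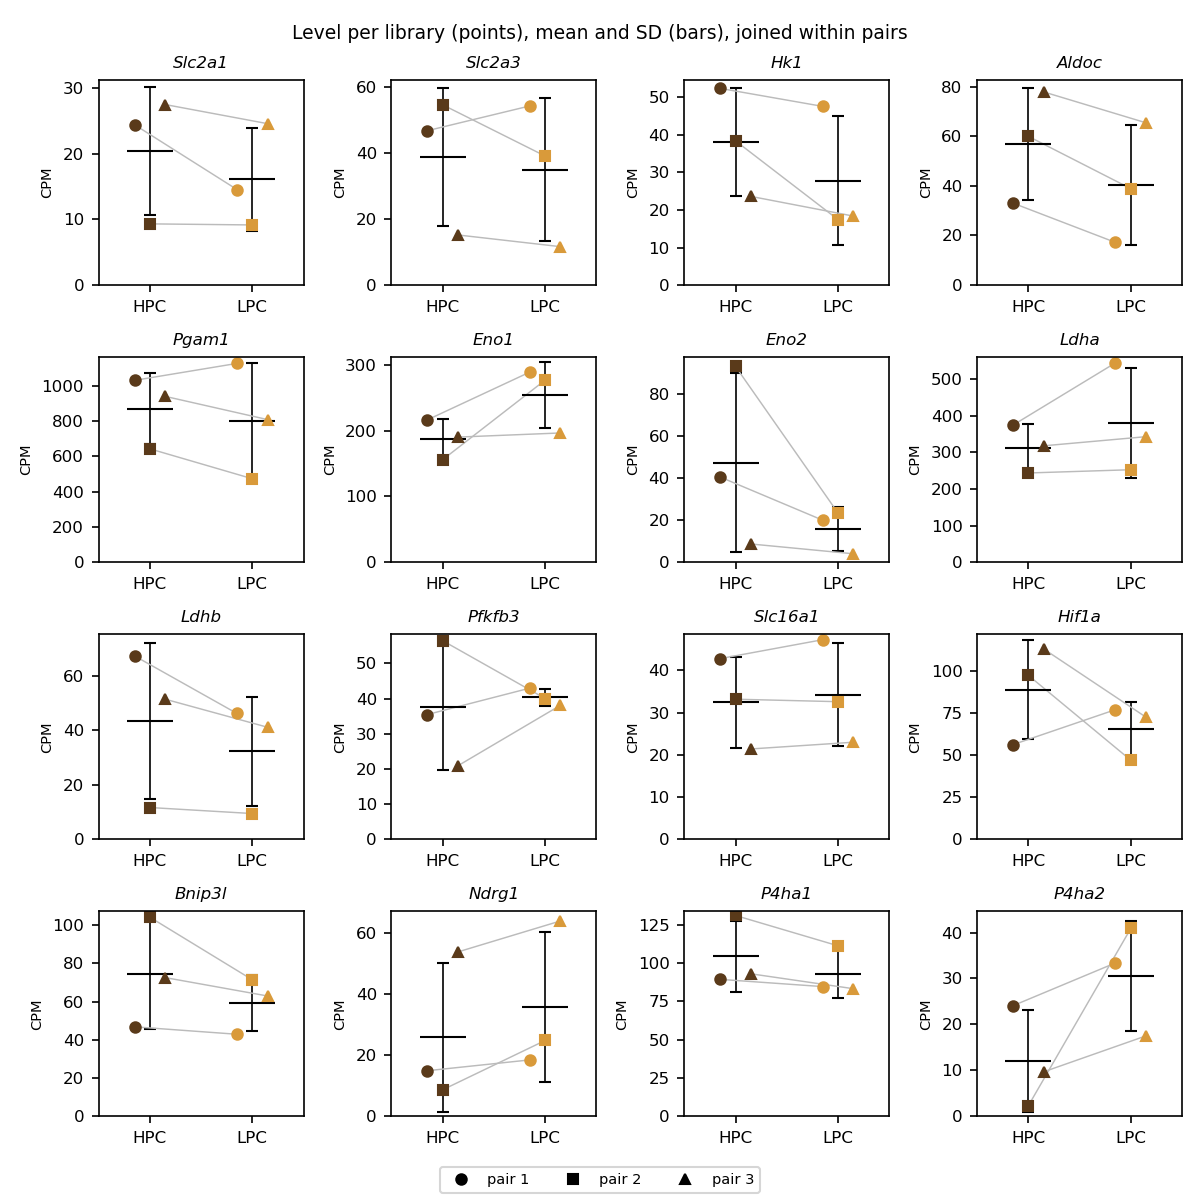
Level in CPM (y axis, linear from 0) of the 16 genes given in full, in HPC and LPC (x axis). Points are libraries joined within pairs, and bars are the mean and SD of 3 libraries. In every pair, lines run downward from HPC to LPC for *Slc2a1*, *Hk1*, *Aldoc*, *Eno2*, *Ldhb*, *Bnip3l* and *P4ha1*. They run upward in every pair for *Ldha*, *Eno1*, *Ndrg1* and *P4ha2*, while the pairs themselves lie apart.

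Glycolytic enzymes, many of them HIF targets themselves, were then set beside the HIF targets of other function. The median log2 fold change was 0.086 over the 17 enzymes, 12 of them above 0, and -0.035 over the 13 other HIF targets, 6 of them above 0, where 47.0% of all genes tested were above 0. Within pairs 1, 2 and 3 the enzyme medians were -0.051, 0.10 and 0.25, and the target medians -0.18, 0 and -0.10. In pair 2 this counts as 0 the genes *Adm*, *Car9* and *Ankrd37*, which had no read in either library. The difference between the medians was 0.13, 0.10 and 0.35 within pairs and 0.12 in the fit, below its SD of 0.14 over the pairs. It was -0.014 with the block and 0.020 without pair 2 as well, so the sign was not kept. With the block the target median, 0.11, was the value of *Ankrd37* (SE 1.19), which had at most 23 counts in a library. The target median behind the turn of the sign with the block is thus the value of a gene near the floor. The gap was also below 0 without the LPC library of pair 3, and the cause was not tested. Spread within each group was wider than the gap between groups, at -0.44 to 1.58 for enzymes and -1.32 to 0.82 for targets.

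Further genes of these pathways came from 4 lists of 127 genes, 89 of them tested. In edgeR 0 passed over all 6 libraries, 0 had an unadjusted p under 0.05, and DESeq2 called 0. With the block and without pair 2, 4 of 90 passed as higher in HPC (4.44%, against 0.932% of all genes) and 0 as lower (0.370% of all genes). The lists were chosen with earlier results of these data known, so these shares describe the lists and do not test them. Among 19 pentose phosphate and glycogen genes, 2 passed, *Ugp2* and *Gyg*. *Ugp2*, which makes UDP-glucose, had 134 ± 18.7 CPM in HPC and 84.8 ± 12.6 CPM in LPC (SD, n = 3 each), and the groups did not overlap. It was higher in HPC by 0.64 ± 0.15 (SE) on the log2 scale in that fit (edgeR adjusted p 0.0352). *Gyg*, glycogenin, the protein primer of glycogen, had 122 ± 29.4 CPM in HPC and 82.7 ± 2.85 CPM in LPC (SD, n = 3 each), also without overlap, and 0.66 ± 0.16 (SE) in that fit (adjusted p 0.039). Among 36 other hypoxia-inducible genes, *Bhlhe41*, a circadian and hypoxia-responsive repressor, and *Gpnmb*, a melanosomal glycoprotein gene known as a target of the MITF family, passed at 0.63 ± 0.13 (SE) and 0.64 ± 0.12 (SE) (adjusted p 0.0103 and 0.00482). *Gpnmb* was at 1649.9, 183 and 907 CPM in the HPC and at 1092, 166 and 560.4 CPM in the LPC libraries of pairs 1, 2 and 3. *Bhlhe41* was at 257, 128 and 609 CPM in the HPC and at 177, 78.0 and 365 CPM in the LPC libraries of pairs 1, 2 and 3. All 4 genes were higher in HPC within each pair, pair 2 included, but each had an edgeR adjusted p of 0.9996 over 6 libraries without the block and 0.927 with it. In limma-voom with the block and sample weights *Ugp2* and *Gyg* did not pass (adjusted p 0.0941 and 0.118), while *Bhlhe41* and *Gpnmb* did (0.0417 and 0.0179). Other glycogen genes did not pass in the fit without pair 2, with 0.36 ± 0.17 (SE) for glycogen synthase (*Gys1*, adjusted p 0.405) and 0.022 ± 0.19 (SE) for the branching enzyme (*Gbe1*, adjusted p 0.983). The summed melanocyte markers were also higher in HPC in pairs 1 and 3, at 12899.7 against 10896 CPM and 21415 against 17749 CPM, and lower in pair 2, at 4582 against 6266 CPM, and their part in these differences was not tested. The 20 other glycolysis and pyruvate genes and 15 HIF subunits and regulators had no gene that passed. In CPM the groups did not overlap for 3 of the 89 wider genes tested, each with HPC above. Of all genes tested, 2.43% did so with HPC above and 5.74% in either direction. Besides *Ugp2* and *Gyg* this was *Pfkfb2*, singled out after its values were seen. *Pfkfb2* was at 17.4, 28.5 and 22.9 CPM in the HPC and at 9.75, 0 and 16.5 CPM in the LPC libraries of pairs 1, 2 and 3. Its raw counts, 107, 49 and 196 in HPC and 59, 0 and 157 in LPC, did overlap.

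Levels of these genes also differed between pairs. Over the 38 genes the range of the 3 pair means had a median of 0.99 on the log2 scale and the largest difference within a pair a median of 0.80. The range was the larger for 23 of 38 (60.5%), against 49.4% of all genes tested. Pair 3 was compared with pair 1, with the sorted population as a term and pair 2 left out, a comparison added after the data were seen. In edgeR 16 of 38 genes (42.1%) had an adjusted p under 0.05, 4 higher and 12 lower in pair 3, where 25.5% of all genes passed, 11.8% higher and 13.7% lower. The replicates here are the HPC and LPC libraries of a shared suffix, which deviate together and may come from a single culture. The p-values of this comparison therefore do not measure spread between independent cultures. DESeq2 called 7 of the 38. Its share over all genes is not given here, so that count cannot be set against a background. The 4 that rose in pair 3 were *Ndrg1* (log2 fold change 1.82, adjusted p 4.05e-07), *Aldoc* (1.56, 3.99e-06), *Bnip3l* (0.59) and *Egln1* (0.58). The largest falls were those of *Eno2* (-2.27, adjusted p 2.55e-06), *Slc2a3* (-1.92), *Adm* (-1.34), *Hk1* (-1.26) and *P4ha2* (-1.11). Both lactate transporter genes fell, *Slc16a1* by 1.02 and *Slc16a3* by 1.04 on the log2 scale. The others that fell were *Pfkp*, *Bnip3*, *Ldha*, *Gpi1* and *Pgk1*, with log2 fold changes of -0.88 to -0.38. Of the roles, 1 of 17 enzymes rose and 6 fell, and 3 of 13 other HIF targets rose and 3 fell. Summed melanocyte markers were at 12899.7 and 10896 CPM in the HPC and LPC libraries of pair 1 and at 21415 and 17749 CPM in pair 3. Summed immediate early and sorting-stress genes were at 249.9 and 324 CPM in pair 1 and at 148 and 102 CPM in pair 3. Not every gene moved with its sum. *Tyr* had raw counts of 502 and 507 in HPC and LPC of pair 1 and 277 and 36 in pair 3. In HPC, *Jun* and *Atf3* had 747 and 308 counts in pair 1 and 546 and 57 in pair 3, while *Egr1* had 68 and 146. The part of either sum in the differences between pairs was not tested.

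**Figure D4:**
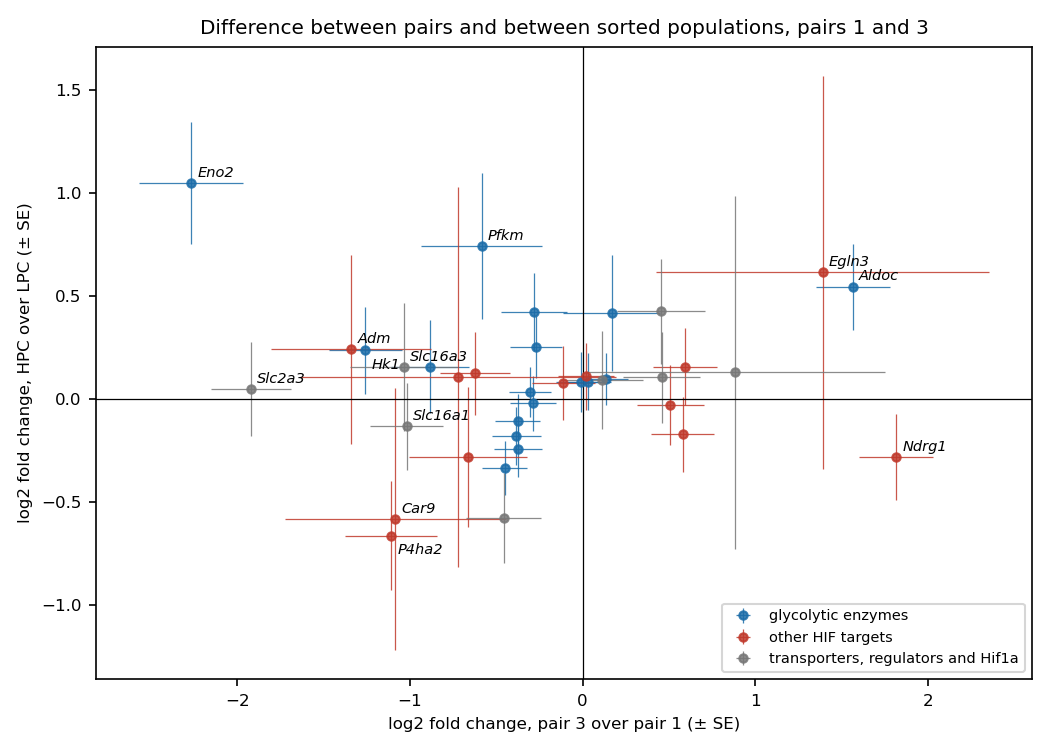
Log2 fold change of pair 3 over pair 1 (x axis) against log2 fold change of HPC over LPC (y axis) for the 38 genes, from 1 edgeR fit to pairs 1 and 3, with SE as bars. Points spread from -2.27 to 1.82 along x and from -0.66 to 1.05 along y, and *Eno2* is at the edge in both directions.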

How the data were processed

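The deposited table holds the authors' raw counts of reads for each gene. HTSeq appears in the table's name, and its tally rows close the table. STAR and GRCm38 are listed in the submitters' processing notes, with no version or role, and libraries were of Lexogen's QuantSeq forward 3′ type, per the labels' protocols. The counting mode, strand setting and annotation are not given in the sources used here. Reads without a gene (12.4% to 29.5% of tallied reads) and ambiguous reads stayed out of library sizes.

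Genes were tested with edgeR 4.0.16 (quasi-likelihood, robust) in R 4.3.3 after filterByExpr (minimum count 10), with TMM scaling and population as the sole term. Benjamini-Hochberg adjustment ran over all genes tested. CPM use TMM-scaled library sizes, and log2 differences within a pair use a prior count of 2. Libraries sharing a suffix deviated together from their group means (r across genes 0.466, 0.316 and 0.422, each above 0.1), so the suffix was taken to pair them and the paired fit is given as the block. No library was a repeat of another, since every comparison of 2 libraries' counts gave a chi-square of at least 14.5 for each degree of freedom. DESeq2 1.42.0, limma 3.58.1 (voom with sample weights), size factors, no filter, the block, leaving out pair 2, rows or single libraries were alternatives. On simulated data each fit returned the sizes of the changes put in, and the fits with the block called most of the larger ones, but the fit without the block called none. The residual spread put in was below that of the 6 libraries, whose biological coefficient of variation was 52.0% with the block and 71.6% without. The simulation therefore does not show which changes the fits with the block to all 6 libraries could call in these data. The fit without the block already missed the changes put in at that lower spread. Its lack of calls here thus does not show that differences were absent. Shared transcript stretches (at least 100 bases at 95% identity) came from BLAST 2.17.0 on GENCODE M21, and promoters from RefSeq. Values per library are given for members averaging at least 10 CPM with no overlap, the same direction in every pair, a call, or the highest level in their role, and for *Hif1a*; of the wider lists, genes that passed are named. The members and lists were chosen with earlier results of these data known.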

Additional observations from a re-analysis of the deposited data

How the results depend on the processing

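Of the 38 genes, 0 passed under any of the 13 alternatives. Over all genes the count was 5 with DESeq2, 155 with the replicate block and without pair 2, and 34 with limma-voom, the block and sample weights, which was chosen after the data were seen. It was 0 in each other fit. Of the wider lists 4 and 2 genes passed in the last pair of fits. The replicate block alone changed no call. The enzyme median kept to -0.030 to 0.20 when single libraries were left out. The median of other HIF targets was 0.11 with the replicate block and 0.076 without pair 2 as well, and ran from -0.18 to 0.20 when single libraries were left out. The gap between enzymes and targets ran from -0.14 (without the LPC library of pair 3) to 0.22, and the cause of these moves was not tested. The count of the 38 genes between pairs 3 and 1 was 7 with DESeq2 and 15 to 18 with size factors, no filter or rows left out. The shares over all genes in these settings are not given here. Leaving out 1 library was not run for it.

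Signs of fitted log2 fold changes turned for 29 of 38 genes, none of them past the threshold. With the replicate block they were *Hk2* -0.0038, *Pfkl* -0.057, *Pfkm* -0.45, *Egln3* 0.46. With the block and without pair 2 they were *Aldoa* 0.096, *Gapdh* -0.022, *Pgk1* -0.11, *Pkm* 0.084, *Pfkfb4* 0.13, *Slc16a3* 0.15, *Vegfa* 0.076, *Bnip3* 0.12, *Egln1* -0.17, *Egln3* 0.61, *Mxi1* -0.28. With limma-voom they were *Slc2a3* -0.0043, *Aldoa* 0.077, *Pgk1* -0.078, *Pkm* 0.053, *Slc16a3* 0.046, *Vegfa* 0.0090, *Bnip3* 0.096, *Egln1* -0.13, *Egln3* 0.70, *Mxi1* -0.19. When each library was left out in turn the values ran as follows: *Slc2a3* -0.27 to 0.62, *Hk2* -0.093 to 0.13, *Gpi1* -0.31 to 0.13, *Pfkl* -0.29 to 0.44, *Pfkm* -0.40 to 0.66, *Pfkp* -0.22 to 0.33, *Aldoa* -0.42 to 0.40, *Tpi1* -0.013 to 0.56, *Gapdh* -0.026 to 0.51, *Pgk1* -0.22 to 0.42, *Pgam1* -0.15 to 0.45, *Pkm* -0.38 to 0.054, *Ldha* -0.51 to 0.072, *Ldhb* -0.025 to 0.87, *Pfkfb3* -0.52 to 0.17, *Slc16a1* -0.35 to 0.23, *Slc16a3* -0.70 to 0.20, *Vegfa* -0.88 to 0.068, *Bnip3* -0.30 to 0.16, *Ndrg1* -1.59 to 0.28, *Egln1* -0.041 to 0.41, *Egln3* -0.59 to 0.33, *Adm* -0.78 to 1.63, *P4ha1* -0.024 to 0.31, *Car9* -1.31 to 0.69, *Ankrd37* -0.90 to 0.82, *Kdm3a* -0.33 to 0.20, *Mxi1* -0.14 to 1.17. The signs of *Slc2a1*, *Hk1*, *Aldoc*, *Eno1*, *Eno2*, *Pfkfb4*, *Pdk1*, *Hif1a*, *Bnip3l* and *P4ha2* did not turn when 1 library was left out. Size factors of the other kind, DESeq2, no filter and the removal of RP23-81C12.3 and mitochondrial ribosomal RNA turned none. Depth limits genes with few reads, above all in pair 2.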

Other observations

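*Pgk1* has retrocopies with nearly as many counts. *Pgk1* had 2041, 424 and 2460 counts in HPC (pairs 1, 2 and 3) and 2416, 557 and 2611 in LPC. *Pgk1-rs7*, which shares 1255 bases with it at 95% identity or more, had 1846, 456 and 2261 in HPC and 2152, 506 and 2478 in LPC, and *Gm5537*, which shares 1252 bases, had 1685, 409 and 2207 in HPC and 2054, 469 and 2318 in LPC. *Pgk1* itself was 32.9% to 36.6% of the 3 rows in every library. For *Gapdh* the copies *Gm3272* and *Gm2574* were the largest of 45 rows that share at least 500 bases, and *Gapdh* was 46.4% to 57.4% of the sum. With these rows added, a choice made after the data were seen, the log2 differences within pairs 1, 2 and 3 were -0.27, 0.78 and 0.059 for *Pgk1* and -0.28, 0.53 and 0.26 for *Gapdh*, with the signs of the single rows. Which locus these reads came from was not tested.

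The table's column of human symbols gives another gene's name for many of these rows. Of the 38 genes, 15 carry a human symbol with other letters than the mouse one. *Gpi1* and *Car9* are among them by spelling alone (GPI, CA9), but *Gapdh* is listed as GAPDHS, *Eno1* as ENO2, *Aldoa* as ALDOC, *Hk1* and *Hk2* as HKDC1, *Pgk1* as PGK2 and *Slc2a1* as SLC2A4. Altogether 19 of the 38 share their human symbol with at least 1 other row. The *Eno1* and *Eno2* rows thus stand under one human name, although their differences between HPC and LPC have opposite signs in every pair.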
